A study of Mus musculus with 26 samples.

Results

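Messenger RNA levels of 10 acute phase genes were examined in mouse liver tumours and control livers: Saa1, Saa2, Saa3, Orm1, Orm2, Hp, Hpx, Lcn2, Apcs and Itih4. They were taken by gene symbol from a table of read counts with 35976 entries, and all 10 were present and passed the filter on low counts in every comparison. Acute phase proteins are secreted mainly by hepatocytes, and their plasma levels move during infection, injury and inflammation. Interleukin-6 acting through gp130 and STAT3, and interleukin-1 acting through NF-kappaB, drive the genes together with C/EBP factors, and glucocorticoids add to the response. In mouse liver the serum amyloid A genes are known for very large rises in inflammation.

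The series holds 26 libraries, of which 20 are tumours from 15 animal numbers and 6 are control livers. The Cyp1a2_CA group (10 tumours, 9 animals) carried Cyp1a2-CreERT2, Ctnnb1(ex3)fl/+ and Arid2fl/fl, and the Gls2_CA group (9 tumours, 5 animals) carried Gls2-CreERT2 with the same Ctnnb1 and Arid2 alleles. The single Cyp1a2_C tumour carried Cyp1a2-CreERT2 and Ctnnb1(ex3)fl/+, with no Arid2 allele in its label. Recombination of the Ctnnb1 allele gives a stabilised beta-catenin, and Arid2 encodes a subunit of a SWI/SNF chromatin remodelling complex. CreERT2 is active after tamoxifen, which was given on postnatal day 28, and tumours were collected over the following 6 to 12 months. Cyp1a2 is expressed in hepatocytes around the central vein and Gls2 in hepatocytes around the portal vein. All tumour mice were on a mixed C57BL/6J and Swiss Webster background. The WT group (6 livers) was C57BL/6J, received an adeno-associated virus carrying Cre, carried no floxed allele in its label and was kept on normal chow for up to 12 months. Tumour genotype, strain, virus and tamoxifen therefore change together between tumours and WT livers and cannot be told apart. Animal numbers were read from the tumour titles, and the letters S, M and L in those titles are not explained in the labels.

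Tumour libraries held 36992043 to 49254470 counts and WT libraries 13486530 to 16975288. Arid2 was measured at 23.3 to 46.2 CPM (counts scaled to library depth) in the 20 tumours and at 61.1 to 73.2 CPM in the WT livers, with no overlap. The Cyp1a2_C tumour had 41.7 CPM of Arid2, below every WT liver, although its label lists no Arid2 allele. Titin (Ttn), a muscle sarcomere protein, stood at 8520 to 29574 CPM in 4 tumours (CAB44-L, CAB225-L, GAB235-S and the Cyp1a2_C tumour CB6-L), against at most 93.7 CPM in the other 16 and at most 2.24 CPM in WT livers. All 12 hepatocyte markers examined were detected in every group, and their summed level was 735 to 65601 CPM in tumours against 101992 to 125169 CPM in WT livers. In bulk tissue, fewer hepatocytes and less RNA per hepatocyte cannot be told apart.

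The genes lie on several chromosomes, and some are close copies. Saa1, Saa2 and Saa3 sit together on chromosome 7 and Orm1 and Orm2 on chromosome 4. The coding sequences of Saa1 and Saa2 were 95.1% identical, those of Orm1 and Orm2 89.9% and those of Saa1 and Saa3 75.9%. How the counting treated reads that fit more than 1 copy is not given in the sources used here, so the split within the Saa1 and Saa2 pair and within the Orm genes is uncertain. RefSeq promoter sequences (GRCm38.p6) were at hand for 8 of the 10 genes, and 6 are shown. These are the near-identical Saa1 and Saa2 pair, their relative Saa3, Orm2, Apcs and Itih4. Orm2 was picked because its share of the Orm reads differed between the tumour groups, a difference that was not tested. Apcs and Itih4 were picked because they did not pass the test against WT in either tumour group. Hpx, which fell in both groups, and Lcn2 are not shown. Orm1 and Hp had no entry. The windows cover chr7:46742981-46743230 for Saa1 (minus strand), chr7:46751583-46751789 for Saa2 (plus), chr7:46715701-46715926 for Saa3 (minus), chr4:63362199-63362448 for Orm2 (plus), chr1:172895055-172895304 for Apcs (minus) and chr14:30886226-30886475 for Itih4 (plus). The windows end where the gene begins in the RefSeq table or in the GENCODE annotation, whichever comes first, so those of Saa2 (207 bases) and Saa3 (226 bases) are shorter than the 250 bases shown for the others. Capitals mark matches, on either strand, to a C/EBP motif (TTGCNNAA), a STAT motif (TTCNNNGAA) or the type 2 interleukin-6 element (CTGGGAA, here on the opposite strand).
Saa1: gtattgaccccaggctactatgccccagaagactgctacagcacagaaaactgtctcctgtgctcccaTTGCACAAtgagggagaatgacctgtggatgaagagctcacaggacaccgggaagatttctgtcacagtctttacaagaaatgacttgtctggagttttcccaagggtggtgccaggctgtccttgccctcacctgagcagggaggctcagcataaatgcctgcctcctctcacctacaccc
Saa2: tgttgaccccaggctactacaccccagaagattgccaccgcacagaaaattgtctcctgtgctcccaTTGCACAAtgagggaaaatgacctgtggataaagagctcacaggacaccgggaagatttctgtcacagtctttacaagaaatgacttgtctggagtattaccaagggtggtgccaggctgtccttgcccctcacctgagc
Saa3: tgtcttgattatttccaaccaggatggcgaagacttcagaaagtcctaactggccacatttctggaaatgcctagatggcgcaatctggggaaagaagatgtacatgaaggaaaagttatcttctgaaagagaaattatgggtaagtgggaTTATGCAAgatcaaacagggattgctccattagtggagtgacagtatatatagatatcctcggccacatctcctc
Orm2: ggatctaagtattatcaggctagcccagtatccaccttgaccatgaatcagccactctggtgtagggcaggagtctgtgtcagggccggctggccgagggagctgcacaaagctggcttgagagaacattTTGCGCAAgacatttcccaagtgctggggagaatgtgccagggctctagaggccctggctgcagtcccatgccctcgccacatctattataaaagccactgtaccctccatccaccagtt
Apcs: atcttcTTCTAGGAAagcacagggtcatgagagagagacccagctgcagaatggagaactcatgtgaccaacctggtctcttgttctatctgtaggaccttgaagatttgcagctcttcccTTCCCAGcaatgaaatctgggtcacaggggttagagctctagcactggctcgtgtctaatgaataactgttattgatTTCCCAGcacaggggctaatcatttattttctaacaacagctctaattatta
Itih4: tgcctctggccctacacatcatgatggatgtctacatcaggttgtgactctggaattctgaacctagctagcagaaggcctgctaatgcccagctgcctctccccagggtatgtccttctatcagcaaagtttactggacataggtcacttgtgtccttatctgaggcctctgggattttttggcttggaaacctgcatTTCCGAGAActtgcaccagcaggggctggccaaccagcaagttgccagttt

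The motifs were searched in the full 250 bases before each RefSeq start. The C/EBP motif was found in 6 of the 8 genes (Saa1, Saa2, Saa3, Orm2, Hpx and Lcn2), beside 9.56% of 32851 promoters. The whole Lcn2 window lies inside the gene as GENCODE annotates it, so its match is upstream of the RefSeq start only. The match lay 182 bases before the RefSeq start of Saa1 and 183 bases before that of Saa2, with the same 8 letters, and the full 250-base windows of the pair were 94.8% identical. The STAT motif was found at Apcs and Itih4, beside 7.02% of all promoters, and the interleukin-6 element only at Apcs, in 2 places, beside 9.1%. The NF-kappaB consensus was in none of the 8 windows, beside 3.9% of all promoters. These matches describe the letters in the windows and are not evidence of binding.

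In Cyp1a2_CA tumours, 7 of the 10 genes fell against WT livers and 0 rose (edgeR's quasi-likelihood test over animals, Benjamini-Hochberg adjusted p under 0.05 across all genes). In that comparison 70.9% of 16841 genes passed, 32.7% lower and 38.3% higher. The median log2 fold change of the 10 genes was -2.34, beside 0.17 over all genes tested. In Gls2_CA tumours 5 of the 10 fell and 0 rose, where 73.2% of 14976 genes passed, 34% lower and 39.2% higher. Their median was -2.06, beside 0.14 over all genes. Both comparisons use the same 6 WT livers and so are not independent. Saa2, Saa3, Orm1, Hp and Hpx passed in both, Saa1 and Orm2 in Cyp1a2_CA alone, and Lcn2, Apcs and Itih4 in neither. Orm1, Hp and Hpx were the 3 genes whose tumour animals all lay below all WT livers, in each tumour group, where 21.2% of genes did so lower in Cyp1a2_CA and 27% in Gls2_CA.

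**Figure D1:**
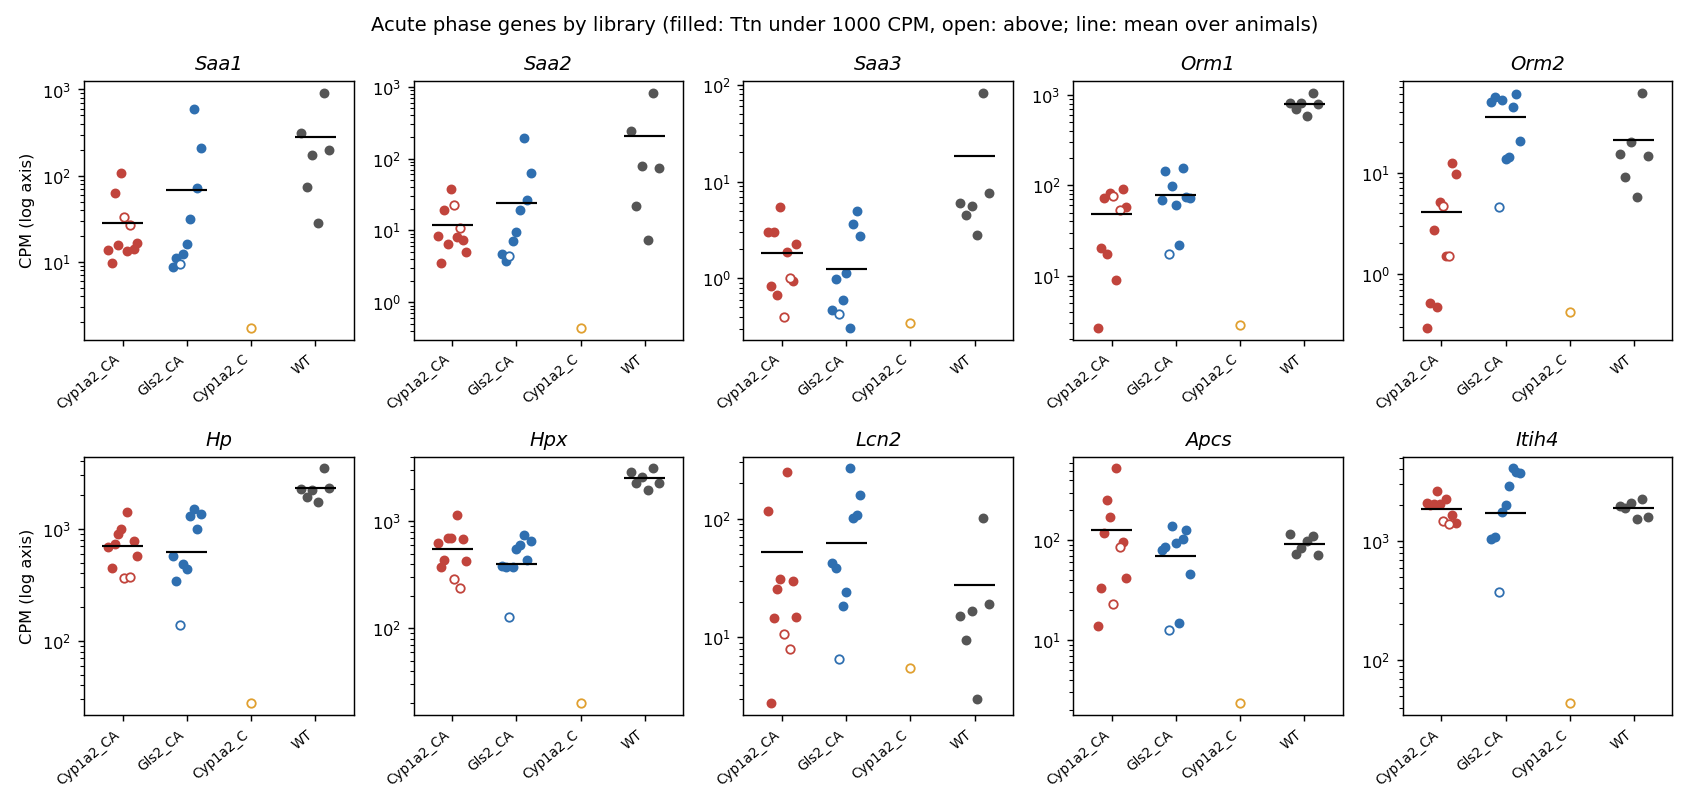
Level of each acute phase gene in every library, as CPM on a log axis, for Cyp1a2_CA, Gls2_CA, Cyp1a2_C and WT. Points are libraries (open: Ttn above 1000 CPM) and lines are means over animals. For Orm1, Hp and Hpx the 20 tumours all lie under the 6 WT livers, while Lcn2, Apcs and Itih4 tumours lie on both sides of them.

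Transcript length moved with these differences. Genes of up to 1000 exonic bases had a median log2 fold change of -0.88 in Cyp1a2_CA and -0.95 in Gls2_CA against WT, while genes over 8000 bases had 1.35 in Cyp1a2_CA and 1.31 in Gls2_CA. Saa1 (609 bases), Saa2 (652), Orm1 and Orm2 (775 each), Lcn2 (915) and Apcs (971) are in the short class, Hp (1345) and Hpx (1499) in the next, and Saa3 (2606) and Itih4 (3531) are longer. With an offset for exon length and GC content, 6 genes were still lower in Cyp1a2_CA, Orm2 no longer passing at -1.41 (edgeR, adjusted p = 0.084). In Gls2_CA, 4 were lower with the offset and Orm2 was higher at 1.78 (edgeR, adjusted p = 0.021). What RNA quality or library preparation contributed was not tested.

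**Figure D2:**
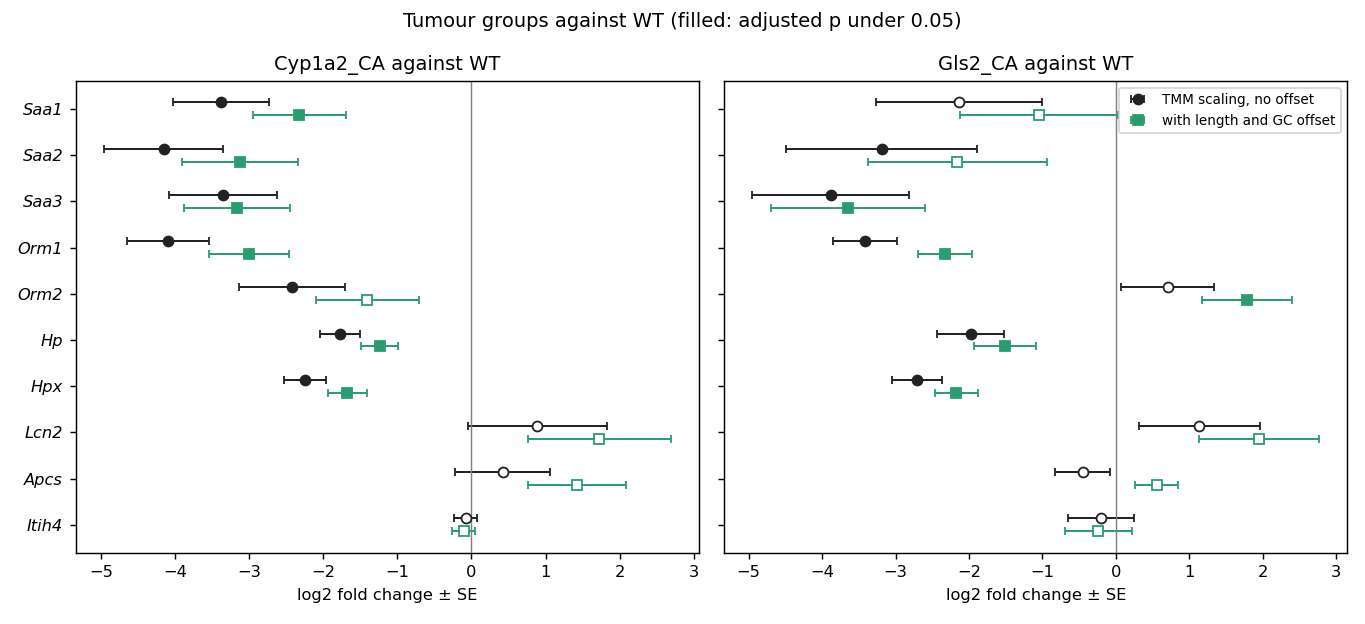
Log2 fold change ± SE of each gene against WT, for Cyp1a2_CA (left) and Gls2_CA (right), from edgeR without an offset (circles) and with an offset for exon length and GC content (squares). Filled symbols have an adjusted p under 0.05. The offset moves the short genes to the right, by about as much for Orm1 as for Orm2, and leaves Saa3 and Itih4 nearly in place.

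Serum amyloid A proteins are small apolipoproteins that travel on high-density lipoprotein and climb steeply in plasma during an acute phase response. Saa1 was measured at 9.78 CPM in the lowest, 16.2 CPM in the median and 106 CPM in the highest Cyp1a2_CA library. In Gls2_CA libraries it was 8.70 CPM, 15.9 CPM and 592 CPM, and in WT livers 28.3 CPM, 186 CPM and 915 CPM. No tumour exceeded the highest WT liver, and 13 of 20 tumours lay below the lowest. Saa1 averaged 28.2 ± 21.3 CPM in Cyp1a2_CA animals (SD, n = 9) and 283 ± 325 CPM in WT livers (SD, n = 6), a log2 fold change of -3.38 (SE 0.65, edgeR adjusted p = 0.00023). In Gls2_CA animals it averaged 67.5 ± 124 CPM (SD, n = 5), and the change of -2.14 against WT did not pass (SE 1.13, edgeR adjusted p = 0.11). Under limma-voom, with libraries of 1 animal treated as correlated, it was -2.54 and passed (adjusted p = 0.030), and without WT_Cre-BL5 it was -1.29 (edgeR adjusted p = 0.30).

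One animal set the Gls2_CA value. The 3 tumours of GAB294 had 592, 72.2 and 206 CPM of Saa1, while the other 6 Gls2_CA tumours had at most 31.7 CPM. Without GAB294 the Saa1 change against WT was -4.55 (edgeR adjusted p = 0.0011). Saa2, the near copy of Saa1, followed it across tumours with a Spearman rho of 0.93 over 20 libraries, a description only, since the copies may share reads.

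Saa2 was measured at 3.53 CPM in the lowest, 8.21 CPM in the median and 38.1 CPM in the highest Cyp1a2_CA library. Gls2_CA libraries gave 3.75, 9.56 and 194 CPM, and WT livers 7.39, 77.0 and 822 CPM. Tumour and WT ranges overlapped, with 8 of 20 tumours below all WT livers and 0 above them. The Saa2 change was -4.16 in Cyp1a2_CA (SE 0.80, edgeR adjusted p = 0.00026) and -3.19 in Gls2_CA (SE 1.29, edgeR adjusted p = 0.042). Without WT_Cre-BL5 the Cyp1a2_CA change was -2.85 for Saa2, and -2.52 for Saa1, and both passed. Without GAB294 the Gls2_CA change of Saa2 was -5.08. The Gls2_CA call was lost without any of 4 of the 5 animal numbers (GAB18, GAB229, GAB235 or GAB242; adjusted p = 0.081 to 0.096), without WT_Cre-BL1 (0.063) or WT_Cre-BL5 (0.15), and with Saa1 and Saa2 counts summed (-2.50, adjusted p = 0.076), all with edgeR. It was also lost in edgeR with no filter (adjusted p = 0.10), with the first library of each animal (0.15), with the length and GC offset (0.13) and without the high-Ttn libraries (0.096). Under limma-voom with sample quality weights it was -2.07 (adjusted p = 0.35), and 13 of 25 alternatives kept it. Saa2 made up 23.3 to 40.6% of the Saa1 and Saa2 reads in Cyp1a2_CA, 23.5 to 37.5% in Gls2_CA and 20.7 to 47.3% in WT livers, so that split overlapped in the 3 groups.

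Saa3, which is also made outside hepatocytes in mice, was low everywhere except in 1 WT liver. It was 0.400, 1.44 and 5.41 CPM (lowest, median, highest) in Cyp1a2_CA, 0.309, 0.986 and 4.99 CPM in Gls2_CA, and 2.79, 5.79 and 82.5 CPM in WT livers. The second-highest WT liver had 7.64 CPM, so the WT mean of 18.2 ± 31.6 CPM (SD, n = 6) rests on WT_Cre-BL5. The change was -3.36 in Cyp1a2_CA (SE 0.73, edgeR adjusted p = 0.00070) and -3.88 in Gls2_CA (SE 1.06, edgeR adjusted p = 0.0059). Without WT_Cre-BL5 it was -1.57 in Cyp1a2_CA (edgeR adjusted p = 0.0052) and -2.13 in Gls2_CA (edgeR adjusted p = 0.0086), still passing at a smaller size, and without GAB294 it was -4.83 in Gls2_CA. Saa4, a constitutively expressed apolipoprotein of the same cluster, fell as well, to 94.7 ± 25.5 CPM in Cyp1a2_CA and 108 ± 96.7 CPM in Gls2_CA, against 948 ± 461 CPM in WT livers (SD; edgeR adjusted p = 1.5e-08 and 0.00032).

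Orosomucoids, also called alpha-1-acid glycoproteins, are plasma carriers of the lipocalin fold that bind drugs and lipids. Orm1 was measured at 2.64 CPM in the lowest, 55.3 CPM in the median and 91.1 CPM in the highest Cyp1a2_CA library. Gls2_CA libraries gave 17.2, 72.4 and 158 CPM, and WT livers 594, 808 and 1062 CPM. Every one of the 20 tumours was below every WT liver, and the WT livers themselves spanned only 1.79-fold. The Orm1 change was -4.09 in Cyp1a2_CA (SE 0.55, edgeR adjusted p = 7.4e-06) and -3.42 in Gls2_CA (SE 0.44, edgeR adjusted p = 2.3e-05). With the length and GC offset it was -3.01 in Cyp1a2_CA and -2.32 in Gls2_CA, and both passed.

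Unlike Orm1, Orm2 was not below all WT livers in every tumour. Across the 20 tumours Orm2 still followed Orm1, with a Spearman rho of 0.76, and of 0.74 over the 16 tumours of low Ttn. This is a description only, since the copies may share reads. Orm2 was 0.294 CPM in the lowest, 2.12 CPM in the median and 12.4 CPM in the highest Cyp1a2_CA library. Gls2_CA libraries gave 4.57, 44.3 and 59.4 CPM, and WT livers 5.77, 15.0 and 61.5 CPM. All Gls2_CA tumours but GAB235-S were within the WT range, and 7 of 9 Cyp1a2_CA animals were below all WT livers. Orm2 averaged 4.05 ± 4.26 CPM in Cyp1a2_CA animals and 21.03 ± 20.4 CPM in WT livers, a change of -2.43 (SE 0.72, edgeR adjusted p = 0.0068), which was -1.72 without WT_Cre-BL5 (edgeR adjusted p = 0.039). In Gls2_CA it averaged 35.6 ± 20.6 CPM, and the change of 0.70 did not pass (SE 0.64, edgeR adjusted p = 0.33); without WT_Cre-BL5 it was 1.39 (adjusted p = 0.042). The summed counts of Orm1, Orm2 and Orm3, another copy in the cluster, gave -4.00 in Cyp1a2_CA (edgeR adjusted p = 7.8e-06) and -2.89 in Gls2_CA (edgeR adjusted p = 8.0e-05).

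Orm2 reads made up 2.47 to 14.5% of the Orm1 and Orm2 reads in the 10 Cyp1a2_CA libraries, 18.4 to 44.6% in the 9 Gls2_CA libraries, 12.99% in the Cyp1a2_C tumour and 0.962 to 5.48% in WT livers. The Cyp1a2_CA and Gls2_CA ranges did not overlap. This ratio was chosen after its values were seen and has no test, and the uncertain sharing of reads between the copies applies to it.

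**Figure D3:**
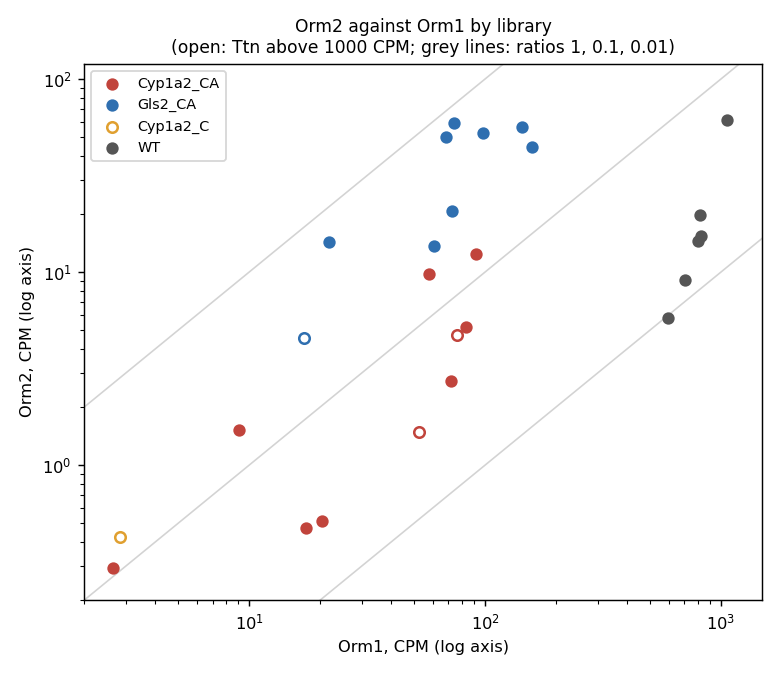
Orm2 against Orm1 in every library, both as CPM on log axes, with grey lines of constant ratio. Gls2_CA points lie above the Cyp1a2_CA points for their Orm1 level, and WT livers lie to the right, with 0.962 to 5.48% of Orm1 and Orm2 reads from Orm2.

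Haptoglobin (Hp) binds free haemoglobin and hemopexin (Hpx) binds free haem, which limits oxidative damage after red cells break. Hp was measured at 362 CPM in the lowest, 708 CPM in the median and 1402 CPM in the highest Cyp1a2_CA library. Gls2_CA libraries gave 138, 574 and 1511 CPM, and WT livers 1750, 2249 and 3455 CPM. All 20 tumours lay below all 6 WT livers. The Hp change was -1.78 in Cyp1a2_CA (SE 0.27, edgeR adjusted p = 2.8e-05) and -1.98 in Gls2_CA (SE 0.45, edgeR adjusted p = 0.0019).

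Hpx was measured at 240, 527 and 1149 CPM (lowest, median, highest) in Cyp1a2_CA, at 128, 431 and 751 CPM in Gls2_CA and at 1953, 2447 and 3114 CPM in WT livers. Again no tumour reached a WT level. The Hpx change was -2.25 in Cyp1a2_CA (SE 0.29, edgeR adjusted p = 3.6e-06) and -2.71 in Gls2_CA (SE 0.34, edgeR adjusted p = 1.9e-05), and both genes passed under every alternative run in both comparisons. Hp was 1.11 to 1.68 times Hpx in Cyp1a2_CA CPM, 0.80 to 2.33 times in Gls2_CA and 0.79 to 1.11 times in WT livers. Hp and Hpx followed each other across the 20 tumours with a Spearman rho of 0.89, and of 0.79 over the 16 tumours of low Ttn.

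Lipocalin-2 (Lcn2), which binds bacterial siderophores and is made by neutrophils and injured epithelia as well as hepatocytes, varied widely in every replicated group. It was 2.77 CPM in the lowest, 20.3 CPM in the median and 248 CPM in the highest Cyp1a2_CA library, 6.54, 42.5 and 264 CPM in Gls2_CA, and 3.05, 15.8 and 101 CPM in WT livers. Tumours lay on both sides of the WT livers, with 5 of 20 above all of them and 1 below all of them. The change was 0.89 in Cyp1a2_CA (SE 0.94, edgeR adjusted p = 0.41) and 1.13 in Gls2_CA (SE 0.83, edgeR adjusted p = 0.23), and neither passed. Without WT_Cre-BL5, whose 101 CPM was 5.33 times the next WT value, Lcn2 was higher in Gls2_CA at 2.23 (edgeR adjusted p = 0.014) and did not pass in Cyp1a2_CA at 2.01 (edgeR adjusted p = 0.079).

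Of 11 neutrophil markers, which bear on Lcn2, 3 could be tested in Cyp1a2_CA and 2 in Gls2_CA. Csf3r, the receptor of granulocyte colony-stimulating factor, was higher in both, at 12.8 ± 3.48 CPM in Cyp1a2_CA and 19.6 ± 2.97 CPM in Gls2_CA, against 1.88 ± 0.956 CPM in WT livers (SD; edgeR adjusted p = 7.2e-07 and 1.1e-06). The summed level of the 11 markers was 4.07 to 35.2 CPM in tumours and 2.07 to 10.999 CPM in WT livers. In Gls2_CA that sum had a median of 21.1 CPM, and the 10 markers other than Csf3r were under 1 CPM in every library. The sum there largely repeats Csf3r and is not a second measure. The granule genes Ngp, Ltf, Camp, Mpo, Elane, Retnlg and Mmp8 were under 1 CPM in every Gls2_CA and WT library, and all of these but Ngp and Ltf were so in every Cyp1a2_CA library. S100a8, another abundant neutrophil gene, fell in Gls2_CA to 0.249 CPM, against 1.05 CPM in WT livers (edgeR adjusted p = 0.012). In Cyp1a2_CA, S100a8 (1.16 CPM; edgeR adjusted p = 0.94) and S100a9 (1.07 CPM, against 0.807 CPM in WT livers; edgeR adjusted p = 0.74) did not pass. The part of neutrophils in the Lcn2 levels was not tested.

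Serum amyloid P component (Apcs) is the pentraxin that is a major acute phase reactant in mice. It was measured at 13.8 CPM in the lowest, 90.4 CPM in the median and 525 CPM in the highest Cyp1a2_CA library, 12.5, 86.6 and 140 CPM in Gls2_CA, and 71.3, 90.5 and 114 CPM in WT livers. WT livers were within 1.60-fold of each other, and tumours spread to both sides, 6 of 20 above all WT livers and 8 below. The change was 0.42 in Cyp1a2_CA (SE 0.64, edgeR adjusted p = 0.57) and -0.45 in Gls2_CA (SE 0.37, edgeR adjusted p = 0.29), with no call. The highest tumour, CAB52-L, turned the Cyp1a2_CA value to -0.29 when left out.

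Itih4, a heavy chain of the inter-alpha-trypsin inhibitor family, was abundant in the 3 replicated groups. It was 1390, 2025 and 2631 CPM (lowest, median, highest) in Cyp1a2_CA, 374, 2001.4 and 4075 CPM in Gls2_CA and 1525, 1938 and 2269 CPM in WT livers. Cyp1a2_CA and WT means were 1853 ± 373 CPM (SD, n = 9) and 1893 ± 282 CPM (SD, n = 6), with a change of -0.08 (SE 0.15, edgeR adjusted p = 0.67). Gls2_CA spread further, at 1718 ± 1373 CPM (SD, n = 5), with a change of -0.21 (SE 0.45, edgeR adjusted p = 0.69). Measured against albumin, which fell in both groups, Itih4 was 0.0737 to 0.412 times Alb in Cyp1a2_CA, 0.104 to 0.839 times in Gls2_CA and 0.0219 to 0.0445 times in WT livers. Those tumour ratios all lay above the WT ratios, a description chosen after the values were seen.

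Per coding kilobase, the order of the genes differed between groups. In Cyp1a2_CA the mean levels were highest for Hp (671 CPM per kilobase), Itih4 (655), Hpx (395) and Apcs (188), and lowest for Orm2 (6.49) and Saa3 (4.99). In Gls2_CA the order began with Itih4 (607), Hp (591), Hpx (290) and Saa1 (183). The place of Saa1 there rests on GAB294, since its median over animals was 11.1 CPM against a mean of 67.5 CPM. In WT livers the order began with Hp (2226), Hpx (1820), Orm1 (1283) and Saa1 (768), with Itih4 next at 669 CPM per kilobase. Coding length leaves out untranslated bases, and the order depends on that choice of length. Hp and Itih4 in either tumour group, and Saa1 and Itih4 in WT livers, were not compared by a test, so their order is not settled. The SD of each gene over animals does not measure the spread of a difference between genes of the same animals.

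No acute phase gene differed between Cyp1a2_CA and Gls2_CA tumours by edgeR's test, where 0 of 17129 genes passed (0%). At an unadjusted p under 0.05, 1 of the 10 genes was called, against 554 genes (3.23%). That gene was Orm2, at 4.05 ± 4.26 CPM in Cyp1a2_CA (SD, n = 9) and 35.6 ± 20.6 CPM in Gls2_CA (SD, n = 5), a log2 fold change of -3.13 (SE 0.77, edgeR unadjusted p = 0.0011, adjusted p = 1.00). Orm2 was 1 of 19 genes called by DESeq2 (-3.13, adjusted p = 0.028) and 1 of 10 called by limma-voom with sample quality weights (-3.79, adjusted p = 0.025). With every library counted as a replicate, edgeR called 6 genes and none of the 10. The other 9 genes had changes between -1.24 (Saa1, SE 0.81) and 0.86 (Apcs, SE 0.78), and without GAB294 the Saa1 value was 1.19.

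The WT livers differed widely among themselves in the inducible genes. WT_Cre-BL5 was the highest WT liver for 9 of the 10 genes and WT_Cre-BL4 the lowest for 9, Apcs being the exception in both. The highest WT level was 111 times the lowest for Saa2, 33.1 times for Lcn2, 32.3 times for Saa1, 29.6 times for Saa3 and 10.7 times for Orm2, but 1.97 times for Hp, 1.79 for Orm1, 1.60 for Apcs, 1.59 for Hpx and 1.49 for Itih4. WT_Cre-BL5 also had the highest level of Socs3, a feedback inhibitor induced by STAT3, at 33.4 CPM, against 4.41 to 10.9 CPM in the other 5 WT livers. Without WT_Cre-BL5, 7 genes were still lower in Cyp1a2_CA, while in Gls2_CA 4 were lower and 2 (Orm2 and Lcn2) higher.

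**Figure D4:**
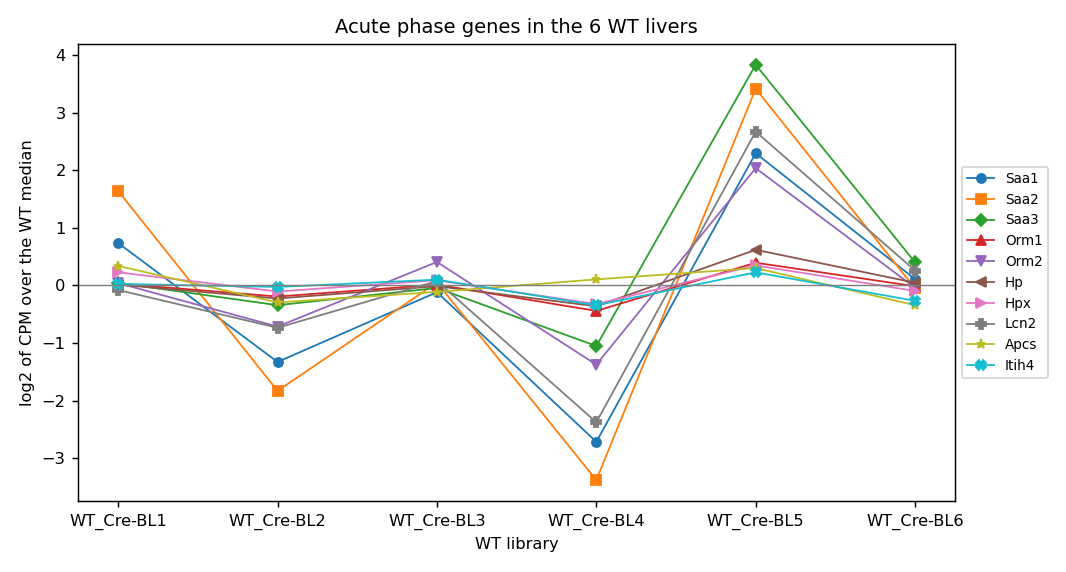
Level of each gene in the 6 WT livers as the log2 of its CPM over the WT median; lines join the points of a gene, and the livers have no order. WT_Cre-BL5 is highest and WT_Cre-BL4 lowest for 9 of 10 genes, with Saa2 spanning 111-fold and Itih4 1.49-fold.

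Tumours whose titles share an animal number differed from each other in several of the genes. In GAB242, Lcn2 was 264 CPM in tumour L and 18.4 CPM in tumour S, a 14.4-fold gap, while Apcs was 14.9 CPM in L and 140 CPM in S, a 9.36-fold gap the other way. In CAB28, Saa1 was 106 CPM in tumour L and 15.8 CPM in S and Orm2 was 5.17 CPM in L and 0.472 CPM in S, while Hp (1.09-fold) and Hpx (1.00-fold) hardly differed. In GAB294, Saa1 spanned 8.21-fold and Itih4 1.09-fold over 3 tumours. These gaps have no replicate and no test.

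**Figure D5:**
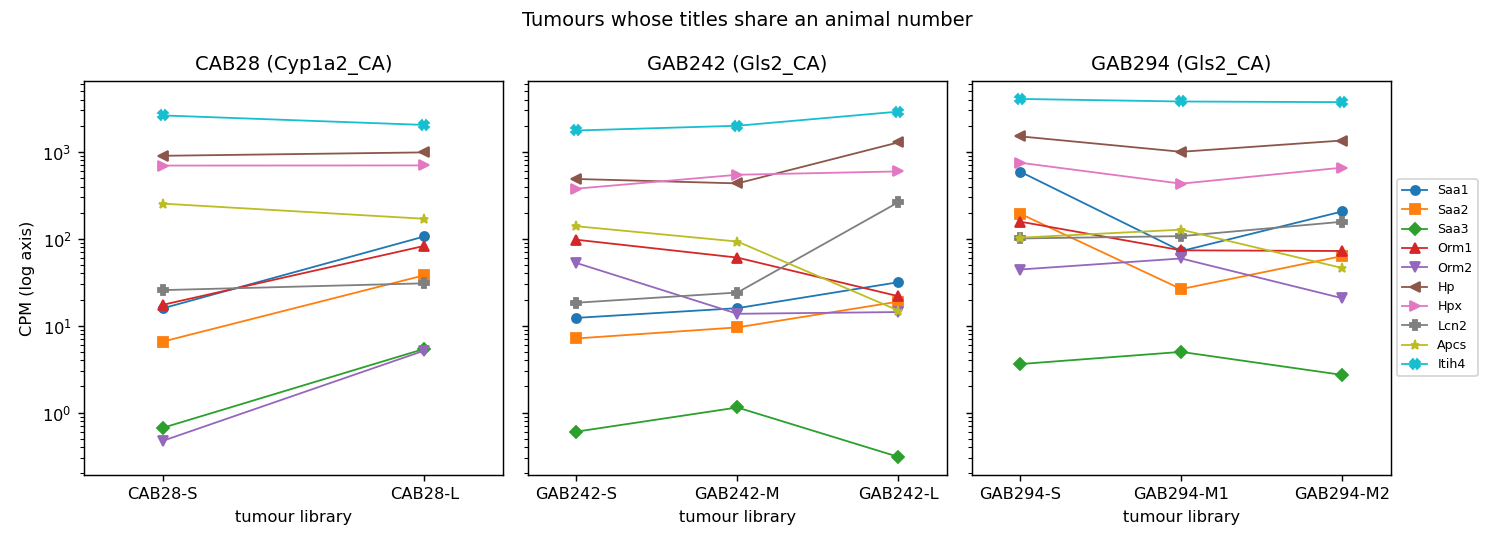
CPM on a log axis of the 10 genes in tumours whose titles share an animal number, for CAB28 (Cyp1a2_CA), GAB242 and GAB294 (both Gls2_CA); lines join the points of a gene. In GAB242 the Lcn2 and Apcs lines cross, and in GAB294 all 3 tumours keep Itih4 between 3742 and 4075 CPM.

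The single Cyp1a2_C tumour was low for every gene, with 1.71 CPM of Saa1, 2.83 of Orm1, 27.6 of Hp, 19.9 of Hpx, 5.52 of Lcn2, 2.32 of Apcs and 43.3 of Itih4. It lay below all 6 WT livers for 9 of the genes, Lcn2 being within their range. Its albumin was 292 CPM, against at least 50167 CPM in WT livers, and its summed hepatocyte markers were 735 CPM. It also had 111 CPM of Xist, a transcript of the inactive X chromosome, and 90.9 CPM of the Y-linked Ddx3y. Xist was at most 5.01 CPM in Cyp1a2_CA, 18.4 CPM in Gls2_CA and 2.16 CPM in WT libraries. Whether this sample is a mixture was not tested. The tumour has no replicate, and its high Ttn was not tested for a part in these values. Without the 4 libraries of high Ttn, 7 genes were lower in Cyp1a2_CA and 4 in Gls2_CA, the loss being Saa2 (-2.92, edgeR adjusted p = 0.096).

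Other genes of the response were counted as lists. In Cyp1a2_CA, 38.3% of all genes tested were higher and 32.7% lower. In Gls2_CA, 39.2% were higher and 34% lower, and all list counts stand beside these shares. Of 20 other positive acute phase genes, 3 rose and 15 fell in Cyp1a2_CA, with a median log2 fold change of -1.35, and 3 rose and 11 fell in Gls2_CA, with a median of -1.70. Those that fell included C-reactive protein (Crp), at 53.3 ± 19.2 CPM in Cyp1a2_CA and 49.7 ± 23.4 CPM in Gls2_CA, against 268 ± 58.9 CPM in WT livers (SD; edgeR adjusted p = 1.8e-07 and 3.8e-05), and the fibrinogen chain gene Fgb, at 847 ± 332 CPM in Cyp1a2_CA and 660 ± 344 CPM in Gls2_CA, against 4461 ± 885 CPM in WT livers (edgeR adjusted p = 2.4e-07 and 7.5e-05). Ceruloplasmin (Cp) and Il1rn, an antagonist of the interleukin-1 receptor, were among those that rose in both and were named after their values were seen.

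Negative acute phase genes, whose products drop in plasma during inflammation, also fell. Of 8 such genes, 5 fell in Cyp1a2_CA and 6 in Gls2_CA, and 0 rose in either. The share of all genes that fell was 32.7% in Cyp1a2_CA and 34% in Gls2_CA. Albumin averaged 11594 ± 7841 CPM in Cyp1a2_CA and 6571 ± 2964 CPM in Gls2_CA, with log2 fold changes of -2.39 and -3.23 against WT (edgeR adjusted p = 1.2e-05 and 1.4e-05). The hepatocyte marker list, which shares genes with these lists, had 9 of 12 lower in Cyp1a2_CA and 8 of 12 in Gls2_CA, with none higher. The part of hepatocyte content in the lower acute phase levels was not tested.

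Cytokine transcripts were scarce. Il6 was at most 0.734 CPM in any tumour and 0.0651 CPM in any WT liver, and was at 0 in all 16 tumours of low Ttn. Of 8 cytokine genes, 3 could be tested in Cyp1a2_CA, where Lif rose and Il1a fell. In Gls2_CA 2 could be tested, and neither Il1a (edgeR adjusted p = 0.060) nor Il1b (0.46) passed. Lif was not tested in Gls2_CA against WT. It averaged 2.01 ± 1.64 CPM there, 1.30 ± 1.61 CPM in Cyp1a2_CA and 0.0307 ± 0.0753 CPM in WT livers (SD). Of 8 receptor genes, 2 rose and 3 fell in each tumour group. Over all genes, 38.3% rose and 32.7% fell in Cyp1a2_CA, and 39.2% and 34% in Gls2_CA. Il6st, which encodes gp130, fell to 63.1 ± 12.7 CPM in Cyp1a2_CA and 67.9 ± 8.10 CPM in Gls2_CA, against 267 CPM in WT livers, log2 fold changes of -2.13 and -2.01 (edgeR adjusted p = 1.6e-09 and 9.9e-08). Il6ra, the interleukin-6 receptor, changed by -1.59 in Cyp1a2_CA and -1.34 in Gls2_CA (edgeR adjusted p = 3.8e-07 and 6.2e-05).

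Among 14 signal transducers and transcription factors, 6 rose and 5 fell in Cyp1a2_CA and 6 rose and 4 fell in Gls2_CA. These counts were near the shares over all genes, 38.3% higher and 32.7% lower in Cyp1a2_CA, and 39.2% and 34% in Gls2_CA. Nr3c1, the glucocorticoid receptor, rose by 1.88 in Cyp1a2_CA and 1.72 in Gls2_CA (edgeR adjusted p = 6.3e-09 and 3.7e-07), and Jak2 rose by 1.62 in Cyp1a2_CA and 1.74 in Gls2_CA (edgeR adjusted p = 1.3e-08 and 2.0e-06). Stat3 did not pass in either, at 0.25 in both. Cebpb and Cebpd, the C/EBP factors of the acute phase, fell by 1.11 and 1.19 in Cyp1a2_CA and by 0.86 and 1.19 in Gls2_CA. Of the inhibitors, 2 rose and 3 fell of 8 tested in Cyp1a2_CA, and 2 rose and 2 fell of 7 in Gls2_CA. Nfkbia, the inhibitor of NF-kappaB, fell by 1.89 in Cyp1a2_CA and 1.62 in Gls2_CA (edgeR adjusted p = 2.7e-09 and 1.1e-05).

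A list of 9 receptors, binding partners and related proteins held Cd163, Lrp1, Hmox1, Slc22a17, Lrp2, Fpr2, Itih1, Itih2 and Ambp. Of these, 6 fell in Cyp1a2_CA, and of 8 tested in Gls2_CA 5 fell, with none higher. All genes tested gave 32.7% lower and 38.3% higher in Cyp1a2_CA, and 34% and 39.2% in Gls2_CA. The inter-alpha-trypsin inhibitor genes Itih1, Itih2 and Ambp fell in both groups and do not encode receptors. Slc22a17 had positive changes that did not pass, 1.58 in Cyp1a2_CA and 2.37 in Gls2_CA (edgeR adjusted p = 0.069 and 0.061). Lrp1, the hepatic receptor of hemopexin-haem complexes, averaged 464 ± 139 CPM in Cyp1a2_CA and 430 ± 137 CPM in Gls2_CA, against 1962 ± 90.2 CPM in WT livers (SD; edgeR adjusted p = 5.0e-08 and 2.4e-06). Cd163, the macrophage receptor of haptoglobin-haemoglobin complexes, changed by -1.93 in Cyp1a2_CA (edgeR adjusted p = 0.00073) and by -1.01 in Gls2_CA without passing (edgeR adjusted p = 0.080). Of 11 macrophage markers, 6 were lower and 0 higher in Cyp1a2_CA, and 7 were lower and 2 higher in Gls2_CA. The higher ones were Cd68 (0.55) and Csf1r (0.49). Adgre1 did not pass in either group, at -0.16 in Cyp1a2_CA and 0.03 in Gls2_CA. Summed levels of the macrophage markers were 75.1 to 301 CPM in tumours and 329 to 405 CPM in WT livers. Of 5 adipocyte markers only Cidec, which fatty hepatocytes also express, could be tested, and it rose in both groups, while Adipoq and Lep were at or under 1 CPM everywhere. Of the biliary and epithelial markers, 2 of 6 rose in Cyp1a2_CA and 2 of 5 rose and 1 fell in Gls2_CA.

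The genes most like each acute phase gene across the 20 tumours, among genes of at least 5 CPM on average, were named by the highest Spearman rho, as a description over libraries that in part share animals. For Lcn2 these began with Nfkbiz (0.88), for Itih4 with Slc39a14 (0.93) and included Itih3 (0.91), and for Hp with the coagulation genes F7 (0.93) and F2 (0.88). For Hpx the first was Cpn1 (0.92), for Apcs Eepd1 (0.89), for Orm1 Marc1 (0.88) and for Orm2 Hibch (0.86). Saa3 came first with Osbpl9 (0.87) and also had Saa4 (0.82). Saa1 and Saa2 had weaker neighbours outside their pair, Slc39a1 (0.74) and Irf2 (0.75). Orm1 had a rho of 0.18 with Hp and 0.14 with Hpx, although all 3 were below WT in every tumour. Without the 4 tumours of high Ttn most of these rhos were lower, among them Lcn2 with Nfkbiz (0.80), Hp with F2 (0.78) and Saa3 with Saa4 (0.72). Those of Orm1 with Marc1 (0.92), Orm2 with Hibch (0.91), Saa1 with Slc39a1 (0.77) and Saa2 with Irf2 (0.76) were higher.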

How the data were processed

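RNA was sequenced from frozen liver tumours and control livers; per the labels' protocols, TRIzol and a PureLink column were used for extraction, and Nugen Ovation kits for the libraries. The authors deposited 1 table of raw read counts by gene symbol. The build was mm10, per the submitters' processing notes, and no aligner, counter, strand setting or annotation is stated in these sources. The 10 genes and all gene lists were chosen with earlier results of these data known.

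Counts of tumours that share an animal number were summed, giving 9 Cyp1a2_CA and 5 Gls2_CA animals and 6 WT livers. Nothing states that the WT livers came from separate animals, and p-values then cover only the spread between samples. The test was edgeR 4.0.16 (R 4.3.3; 2 groups per fit, TMM scaling, filterByExpr, quasi-likelihood test, Benjamini-Hochberg adjustment over all genes; threshold 0.05). Levels are TMM-scaled CPM, and their precision is limited by 13486530 to 49254470 counts per library. SEs are the fold change divided by the square root of the F statistic. Exon lengths came from GENCODE M21, matched for 74.4% of symbols overall and for 88.1, 90.3 and 88.2% of the genes tested in the 3 comparisons, and coding lengths from the longest open reading frame. The scripts were tested on simulated data. Alternatives were DESeq2 1.42.0, limma-voom 3.58.1, other scalings and filters, an offset for length and GC content, thinning, summed copies and leaving out each animal. The 10 genes were all named; from each other list up to 3 genes with the smallest p per comparison could be named, and Arid2 and Ttn as checks. Genes outside that rule (Cp, Il1rn, Stat3, Cebpb, Cebpd, Cd163, Socs3 and Il6 among them) were named after their values were seen. The replicate numbers of tumours and WT livers follow accession order and pair nothing.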

Additional observations from a re-analysis of the deposited data

Results flagged for a closer look

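In 3 of 30 gene and group sets examined, 1 animal stood far from the rest of its group by Dixon's test, which flags about 5% of sets by chance. Saa1 in Gls2_CA was 289 CPM in GAB294, over its 3 summed tumours, and at most 19.9 CPM in the other 4 animals. Saa3 in WT was 82.5 CPM in WT_Cre-BL5 and at most 7.64 CPM in the other 5 livers. Apcs in Gls2_CA was 12.5 CPM in GAB235, the animal whose tumour has high Ttn, and at least 80.0 CPM in the other 4 animals.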

How the results depend on the processing

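No paired analysis was possible because the replicate numbers follow accession order and tumours share no number with WT livers. Leaving out each animal gave 7 genes called in every Cyp1a2_CA fit against WT, 4 to 6 in Gls2_CA against WT and 0 between tumour groups. Limma-voom with quality weights called 3 in Gls2_CA against WT (edgeR 5), losing Saa2 and Saa3; between tumour groups DESeq2 and limma-voom called 1 each (19 and 10 genes overall), and every library as a replicate called 6 genes. In Cyp1a2_CA against WT, Saa2 (adjusted p = 0.087) and Saa3 (0.051) were lost with limma-voom. DESeq2 gave Saa3 no adjusted p in either comparison against WT, and called 6 genes in Cyp1a2_CA and 4 in Gls2_CA. Signs turned for uncalled values, and for these the cause was not tested. In Cyp1a2_CA against WT, Lcn2 was -0.058 with DESeq2, Apcs -0.048 and Itih4 0.0026 with limma-voom, and Itih4 0.0072 without high-Ttn libraries (a setting chosen after seeing the data); leaving out an animal gave -0.015 to 2.01 for Lcn2 and -0.29 to 0.57 for Apcs. In Gls2_CA against WT, Orm2 was -2.89 with Orm copies summed, which adds the more abundant Orm1, Apcs 0.55 with the offset, and Itih4 0.26 with every library and 0.050 without high-Ttn libraries (leaving out an animal, -0.72 to 0.050, with -0.27 without WT_Cre-BL4). Between tumour groups, Hp was -0.13 and Itih4 -0.29 with every library, Itih4 -0.057 without high-Ttn libraries and Lcn2 0.33 with the first library of each animal. Leaving out an animal there gave -1.54 to 1.19 for Saa1, -1.24 to 0.94 for Saa2, -0.069 to 0.65 for Hp (0.27 without CAB44), -1.15 to 0.15 for Lcn2 (0.0071 without GAB242) and -0.14 to 0.64 for Itih4 (0.16 without CAB239). Upper-quartile scaling moved the median of all genes by -0.22 in both WT comparisons. The random-effect fit could not be made for Cyp1a2_CA against WT. Saa3 had the lowest mean level of the 10 genes in Cyp1a2_CA, Gls2_CA and WT.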
